A study of Xenopus laevis with 3 samples.

Results

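The calcium, TRP, chloride and proton channel genes of the African clawed frog, Xenopus laevis, were measured in whole testis. They were chosen by symbol alone: after a final .L or .S was removed, 112 of the 34694 gene rows of the deposited table began with the name of a voltage-gated calcium channel subunit (cacn), a TRP channel (trpa, trpc, trpm, trpv), a polycystin (pkd), an anoctamin (ano), a CLC protein (clcn), a bestrophin (best), a ryanodine receptor (ryr), a two-pore channel (tpcn) or an Orai, or were stim1, stim2 or hvcn1. The rule uses no measured value, although the families were picked with earlier results of these data known. The rows stand for 75 symbols. Of these, 37 had both an L and an S row, 32 only an L row and 5 only an S row, while the row trpc2.l carries neither ending. Xenopus laevis is allotetraploid, and L and S mark the copies, called homeologs, on the longer and shorter chromosomes of each pair. For symbols with a single row, the other copy was not analysed here.

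Poly-A RNA came from testes of untreated males of outcrossed laboratory stock, labelled as mixed testis and therefore not sorted by cell type. The 3 libraries form a single group, differ in processing date and are called replicate 1, 2 and 3 here. The labels do not say outright that the animals were separate, so a p-value measures only the spread between these libraries, which may be technical. With no second group, the comparisons were made between genes, between L and S copies, and between libraries.

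These proteins move ions that sperm and their precursors use as signals. Calcium enters a cell through voltage-gated, TRP and Orai channels and leaves internal stores through ryanodine receptors and, in endosomes and lysosomes, two-pore channels. Chloride passes through anoctamins, bestrophins and some CLC proteins, while other CLC proteins exchange chloride for protons inside vesicles. The hvcn1 channel lets protons out of depolarised cells and, in human sperm, raises the internal pH. In Xenopus eggs, the calcium-activated chloride channel encoded by ano1 carries the current that blocks entry of further sperm.

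The libraries held 70580016, 68378714 and 61212304 counts in replicates 1, 2 and 3. A row was called detected where it had a CPM (counts scaled to library size, with library factors from edgeR) of at least 0.5 and over 3 counts in every library. Markers of spermatids (10 of 10 rows), meiosis (6 of 6) and Sertoli cells (8 of 8) were detected. So were those of smooth muscle (10 of 10), spermatogonia (7 of 7), Leydig cells (5 of 5) and endothelial cells (6 of 6). Of all rows with a gene name, 81.6% were detected. Marker sums of smooth muscle cells differed most between libraries, at 113, 451 and 1245 TPM (transcript abundance scaled to gene length and library size) in replicates 1, 2 and 3. In bulk tissue, fewer cells of a type and less RNA per cell cannot be told apart.

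Of the 112 channel rows, 83 (74.1%) were detected, against 66.7% of all rows and 81.6% of rows with a gene name. Their median length of 2590 bases was above the 1257 bases of all rows, and a CPM limit is reached more readily by a long gene. Per length, the channel rows lay low: their median was 1.49 TPM, against 3.25 TPM over all rows and 7.90 TPM over rows with a gene name. At 1 TPM or more the shares were close, with 68 channel rows (60.7%) against 64.2% of all rows. At 10 TPM or more stood 17 channel rows (15.2%), against 32.9% of all rows. By family, 24 of 35 rows of voltage-gated calcium channels were detected, 21 of 29 TRP rows, 21 of 29 rows of the chloride families (anoctamins, CLC proteins and bestrophins), 6 of 7 orai and stim rows, 4 of 5 polycystin rows, and all 7 rows of ryr, tpcn and hvcn1. No row was without counts in every library, and 4 had a count of 0 in at least 1 library.

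**Figure D1:**
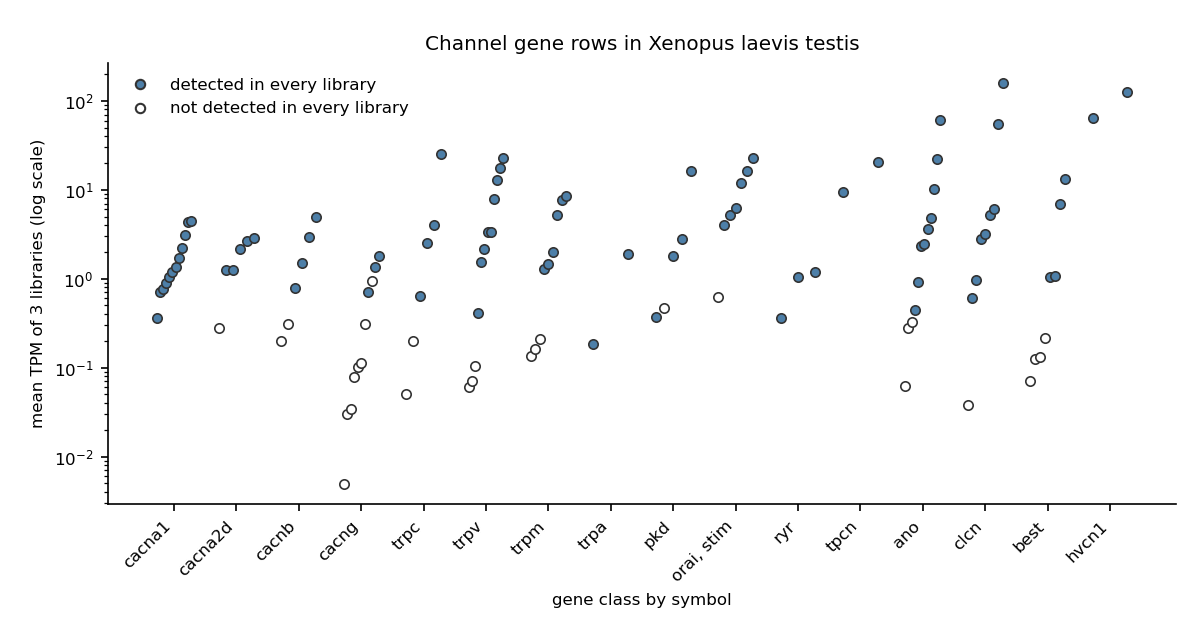
Mean TPM of each of the 112 channel rows over 3 libraries, on a log axis, by gene class; filled points were detected in every library and open points were not. The classes with a row above 50 TPM are hvcn1, clcn and ano, and most cacng rows are open points below 1 TPM.

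A handful of rows held most of the channel transcripts. The 112 rows summed to 804, 897 and 870 TPM in replicates 1, 2 and 3, a mean of 857 ± 48.1 TPM (SD, n = 3). The 5 rows of highest mean, clcn3.S, hvcn1.L, hvcn1.S, ano1.L and clcn3.L, made up 50.3%, 58.6% and 53.4% of that sum, or 54.1 ± 4.19% (SD, n = 3). The 10 highest rows made up 67.3 ± 3.36%. By class, CLC genes held 27.1 ± 1.83% of the sum, hvcn1 22.04 ± 6.82%, anoctamins 12.7 ± 2.08%, TRPV genes 8.44 ± 0.978%, and Orai and stim genes 7.81 ± 0.670%. All 35 rows of voltage-gated calcium channels together held 5.72 ± 0.858%. These shares depend on the deposited lengths, 693 bases for both hvcn1 rows against a median of 2590 bases over the channel rows.

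**Figure D2:**
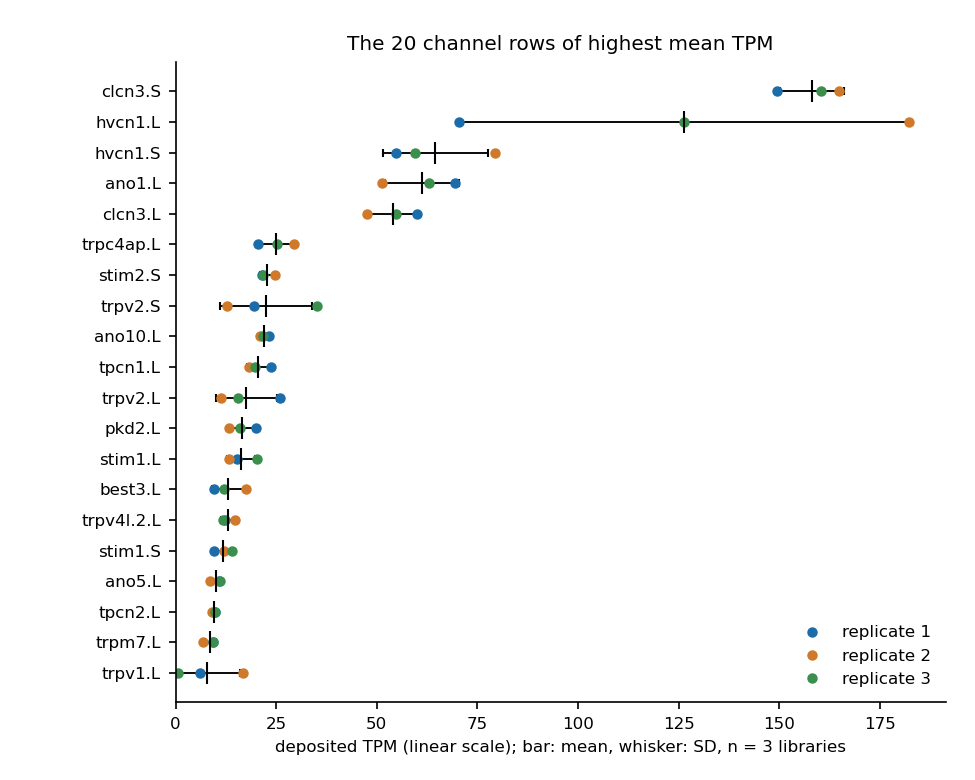
Deposited TPM of the 20 channel rows of highest mean, per library (points), with mean (bar) and SD (whisker, n = 3). clcn3.S is at 149 to 165 TPM, hvcn1.L spans 70.3 to 182 TPM, and no row below clcn3.L exceeds 35.2 TPM in any library.

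By mean TPM over the libraries, the most abundant channel gene was clcn3, for an exchanger of chloride and protons in the membranes of endosomes. Its L copy had 60.03, 47.5 and 54.9 TPM in replicates 1, 2 and 3. Its S copy had 149, 165 and 160 TPM, from 26352, 28708 and 25226 counts, above the L copy in every library without overlap. The row clcn3.S stood at rank 994 of all 34694 rows by mean TPM, and its libraries lay close together, with a coefficient of variation (CV, SD over mean) of 5.04%. The S copy therefore supplied most of the clcn3 level, and L held 25.5 ± 3.16% of it (SD, n = 3). In replicate 2, however, the copies of hvcn1 summed to 262 TPM, above those of clcn3 together.

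The other CLC genes stood far lower. The endosomal exchanger gene clcn5.L had 8.03, 4.73 and 5.47 TPM in replicates 1, 2 and 3. The lysosomal exchanger gene clcn7.L had 5.88, 4.34 and 5.34 TPM, and clcn6.L, of late endosomes, 4.21, 2.15 and 3.17 TPM. The ranges of clcn5.L and clcn7.L overlapped, and clcn6.L lay just below both. Each of the 3 was highest in replicate 1, as were 50.0% of all detected rows. The row ostm1.L, whose product is the partner subunit of the clcn7 protein, had 29.3, 21.6 and 23.5 TPM. Of the plasma membrane channels, clcn2.L, a widely expressed inward rectifier, had 3.39, 1.77 and 3.22 TPM. The muscle chloride channel gene clcn1.L had 0.624, 0.883 and 1.42 TPM. Its copy clcn1.S, with 6, 2 and 11 counts, was the only CLC row not detected.

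The voltage-gated proton channel gene was present from both copies. For hvcn1.L the libraries gave 70.3, 182 and 126 TPM (3204, 8193 and 5131 counts), and for hvcn1.S 54.7, 79.4 and 59.6 TPM. Both copies were highest in replicate 2 and lowest in replicate 1. The L copy varied more, with a CV of 44.3% against 20.3% for the S copy. In replicate 2 hvcn1.L was the highest channel row, and in replicates 1 and 3 it came after clcn3.S, so the order of these leading rows differed between libraries. The rows hvcn1.S, ano1.L and clcn3.L had means of 64.6 ± 13.1, 61.3 ± 9.13 and 54.1 ± 6.31 TPM (SD, n = 3), and their ranges overlapped. Within libraries, ano1.L was above clcn3.L each time (69.4, 51.4 and 63.1 against 60.03, 47.5 and 54.9 TPM in replicates 1, 2 and 3). By contrast, hvcn1.S was above ano1.L in TPM in replicate 2 alone. The deposited lengths were 693 bases for both hvcn1 rows, 3157 for ano1.L and 2677 for clcn3.L. Without length, the mean CPM was 84.5 for hvcn1.L and 42.7 for hvcn1.S, against 182 for ano1.L and 137 for clcn3.L. In the NCBI gene table, the span of hvcn1.L overlaps that of tctn1.L, a gene of the ciliary transition zone. That row had 11.1, 8.68 and 10.01 TPM, below hvcn1.L in every library and lowest where hvcn1.L was highest. The strand setting of the counting is not given in the sources used here, so reads shared by overlapping genes cannot be told apart. Of the other proton channel genes, those of the otopetrin family, 1 of 5 rows was detected, against 66.7% of all rows. It was otop1.S at 0.848 ± 0.235 TPM (SD, n = 3).

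Anoctamins, a family of calcium-activated chloride channels and lipid scramblases, were led by ano1.L with 69.4, 51.4 and 63.1 TPM in replicates 1, 2 and 3. The homeolog ano1.S had 2.02, 2.34 and 9.91 TPM, and its replicate 3 value stood apart from the other two. Of the 12 anoctamin rows, 9 were detected, against 66.7% of all rows and 81.6% of rows with a gene name. The row ano10.L had 23.1, 21.03 and 21.6 TPM and was among the steadiest channel rows, with a CV of 4.90%. The row ano5.L, known from muscular dystrophy in humans, had 10.8, 8.59 and 11.0 TPM. The scramblase gene ano6.L had 4.29, 2.90 and 3.74 TPM. The row ano8.L had 2.76, 2.68 and 1.47 TPM, so that below ano1.L the order ano10.L, ano5.L, ano6.L, ano8.L held in every library. The rows ano7.L, ano9.L and ano10l.L were not detected, with at most 74 counts in any library. The olfactory chloride channel gene ano2.L had 0.304, 1.81 and 0.650 TPM and was high in replicate 2 alone. Bestrophins, another family of calcium-activated chloride channels, were carried by best3. The row best3.L had 9.55, 17.6 and 12.1 TPM, and best3.S 7.80, 8.68 and 4.28 TPM. The retinal gene best1 stood near 1 TPM in both copies, and none of the 4 rows of best2 and best4 was detected, with 1 to 41 counts in any library.

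TRP rows were uneven within each branch. The highest of the TRPC rows by symbol was trpc4ap.L, with 20.4, 29.5 and 25.3 TPM. It meets the rule by its name, yet its product is known as a protein that binds a TRPC channel and not as a channel. Among the channels of that branch, trpc1.L had 2.86, 4.74 and 4.49 TPM. The rows trpc6.L and trpc2.l were not detected.

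By mean TPM, both copies of trpv2, a cation channel gene best known from leukocytes, neurons and muscle, led the TRPV branch. The row trpv2.L had 26.01, 11.3 and 15.5 TPM in replicates 1, 2 and 3, and trpv2.S had 19.5, 12.9 and 35.2 TPM. The copies overlapped widely, with L high in replicate 1 and S high in replicate 3. The row trpv4l.2.L, to which no role is given here, was steadier at 12.4, 14.7 and 11.7 TPM, while its neighbour in name trpv4l.1.L was not detected. In replicate 2, trpv1.L at 16.8 TPM and trpv4l.2.L stood above both copies of trpv2. The gene trpv4, an osmotically and mechanically gated channel, had 1.83, 1.54 and 1.27 TPM from trpv4.L and 1.79, 5.07 and 3.28 TPM from trpv4.S. The calcium-selective epithelial channel gene trpv5.L had 2.04, 0.819 and 3.66 TPM, and trpv6.L had 0.412, 0.405 and 0.430 TPM. Neither copy of trpv3, a channel of skin, was detected.

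Among TRPM genes, trpm7, for a magnesium and calcium channel fused to a kinase, was expressed from both copies at like levels. The row trpm7.L had 9.40, 6.82 and 9.36 TPM and trpm7.S 7.69, 7.50 and 8.00 TPM. The row trpm3.L followed with 5.16, 5.60 and 4.86 TPM. The magnesium uptake gene trpm6.L had 4.40, 0.712 and 0.800 TPM, so that replicate 1 alone was high. The cold receptor gene trpm8.L had 1.96, 0.811 and 1.07 TPM. The rows trpm2.L, trpm4.L and trpm8b.L were not detected. The irritant receptor gene trpa1.L had 2.89, 1.29 and 1.46 TPM, highest in replicate 1 as well.

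Polycystins form calcium-permeable channels of cilia, and in Drosophila Pkd2 is needed for sperm to reach the storage organs of the female. The row pkd2.L had 20.08, 13.3 and 15.9 TPM in replicates 1, 2 and 3. Its large partner pkd1.L had 2.41, 1.46 and 1.47 TPM, below pkd2.L in every library. The related pkd1l1.L, known for left-right patterning, had 3.11, 3.46 and 1.79 TPM. The row pkd2l1.S had 1.10, 0.173 and 0.120 TPM and was not detected in all libraries.

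Store-operated calcium entry needs a sensor in the endoplasmic reticulum, encoded by stim genes, and a pore in the plasma membrane, encoded by orai genes. The sensors were the more abundant. The row stim2.S had 21.5, 24.7 and 21.8 TPM, stim1.L 15.2, 13.4 and 20.2 TPM and stim1.S 9.60, 12.02 and 14.1 TPM. Of the pores, orai1.S had 4.68, 7.81 and 6.24 TPM, orai2.L 3.25, 3.19 and 5.47 TPM and orai2.S 5.56, 4.03 and 6.17 TPM. No orai row reached the lowest value of any stim row. The row orai1.L had 29, 35 and 27 counts and was not detected, with a lowest CPM of 0.385. Between it and the detection limit lay ano9.L alone, with a lowest CPM of 0.444. Just above it were cacng3.S at 0.504 and pkd2l1.L at 0.505 CPM.

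Calcium release channels of the sarcoplasmic type were scarce. The row ryr3.L had 2.09, 0.524 and 0.950 TPM in replicates 1, 2 and 3, ryr3.S had 1.47, 0.813 and 0.860 TPM, and the skeletal muscle gene ryr1.L had 0.578, 0.208 and 0.300 TPM. All 3 rows were highest in replicate 1, as were 50.0% of all detected rows. The two-pore channel genes of endosomes and lysosomes were higher, with tpcn1.L at 23.7, 18.2 and 19.7 TPM and tpcn2.L at 9.74, 8.95 and 9.80 TPM. The highest value of a ryanodine receptor row, 2.09 TPM, lay under the lowest of a two-pore channel row, 8.95 TPM.

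Voltage-gated calcium channels consist of a pore subunit (cacna1 genes) and auxiliary subunits (cacna2d and cacnb genes) that bring it to the membrane and set its gating. The cacng genes were counted with the auxiliary subunits by symbol alone, and not all of them need act on these channels. All 12 pore rows were detected, against 66.7% of all rows, although each had a mean under 5 TPM. Their deposited lengths were 5073 bases or more, and a long gene reaches the CPM limit more readily. The skeletal muscle pore gene cacna1s.S had 4.19, 3.05 and 6.12 TPM, and cacna1f.L, known from the retina, 4.55, 4.52 and 4.04 TPM. Of the 12 pore rows cacna1f.L varied least, with a CV of 6.54%. The neuronal pore genes cacna1e.L and cacna1a.S had 2.64, 4.36 and 2.36 TPM and 2.79, 1.88 and 2.01 TPM. The row cacna1b.S, of nerve terminals, had 1.49, 0.923 and 1.16 TPM, and cacna1d.L, of pacemaker and hair cells, 1.12, 0.520 and 0.670 TPM. The low-voltage (T-type) pore genes, which carry the calcium current of spermatogenic cells in mouse, were cacna1h.L, cacna1g.L, cacna1i.L and cacna1i.S, with means of 1.71, 1.04, 0.892 and 1.34 TPM. The cardiac and smooth muscle pore gene cacna1c was low in both copies, at 0.366 ± 0.0798 TPM for cacna1c.L and 0.713 ± 0.123 TPM for cacna1c.S (SD, n = 3). The span of cacna1c.S overlaps that of dcp1b.S, which had 12.5, 7.54 and 8.72 TPM. Both rows were highest in replicate 1, as were 50.0% of all detected rows, and both were lowest in replicate 2. Markers of skeletal muscle were mixed, with 7 of 9 rows detected. The creatine kinase row ckm.L had 130, 193 and 147 TPM, while the myosin row myh4.L was at 0.118, 0.0875 and 0.0300 TPM. The rows tnnt3.L (35.8, 13.4 and 6.78 TPM) and tnni2.L (12.5, 3.48 and 2.73 TPM) were highest in replicate 1. Of these markers only mylpf.L, at 1.45, 0.992 and 10.7 TPM, was highest in replicate 3, like cacna1s.S. The part of muscle cells in the cacna1s.S level was not tested.

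Of the 23 auxiliary rows, 12 were detected, against 66.7% of all rows and 81.6% of rows with a gene name. With lengths of 681 to 3993 bases, all of them are shorter than any pore row, so the detected counts are not alike in reach. The row cacnb1.L had 4.64, 4.13 and 6.02 TPM and cacnb2.L 3.61, 2.31 and 2.89 TPM. Their copies cacnb1.S and cacnb2.S were lower in every library, and cacnb2.S was not detected, nor was cacnb3.L. Of the alpha2delta genes, cacna2d2.L had 2.72, 1.85 and 1.89 TPM, and cacna2d3.S had 2.46, 3.28 and 2.92 TPM. The level of cacna2d3.S rests on its short deposited length, 1185 bases against 3351 for cacna2d2.L. Its 192, 252 and 203 counts were below the 599, 403 and 372 of cacna2d2.L. The row cacna2d1.L had 0.413, 1.14 and 6.40 TPM, so that replicate 3 alone was high. Of the 11 cacng rows, 3 were detected, cacng5.L, cacng4.L and cacng3.S, at means of 1.78, 1.37 and 0.710 TPM. The row cacng4.S was not detected, although its mean of 0.951 TPM (1.97, 0.534 and 0.350 TPM in replicates 1, 2 and 3) was above that of cacng3.S. The muscle subunit gene cacng1 gave 0, 4 and 0 counts for cacng1.L and 11, 2 and 2 for cacng1.S. The 4 rows with a count of 0 in some library were all cacng rows (cacng1.L, cacng3.L, cacng7.S and cacng8.S). A count of 0 allows up to 0.0398, 0.0459 and 0.0501 CPM in replicates 1, 2 and 3 (3 counts, counting error only).

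The L and S copies were then compared within libraries, to see which copy of each channel gene supplied its transcripts. Of 37 channel pairs, 29 had a summed CPM of 1 or more over their copies in every library and were tested. The others were best2, best4, cacng1, cacng3, cacng7, cacng8, pkd2l1 and trpv3. The test was edgeR's quasi-likelihood test on the counts of all 6627 such pairs of the table, per base of gene length and with the library as a block. Benjamini-Hochberg adjustment over all pairs and a threshold of 0.05 called 18 of the 29 channel pairs (62.1%), against 61.1% of all pairs. L was higher in 13 (44.8%), against 34.4% of all pairs, and S was higher in 5 (17.2%), against 26.7%. The share called in either direction thus lay near that of all pairs. The fitted log2 ratios (L over S) had a median of 0.74 over the 29 pairs and of 0.15 over all pairs. Scaling L and S columns separately moved the median of all pairs to -0.01 and that of the channel pairs to 0.58. L was then higher in 11 channel pairs and S in 5.

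**Figure D3:**
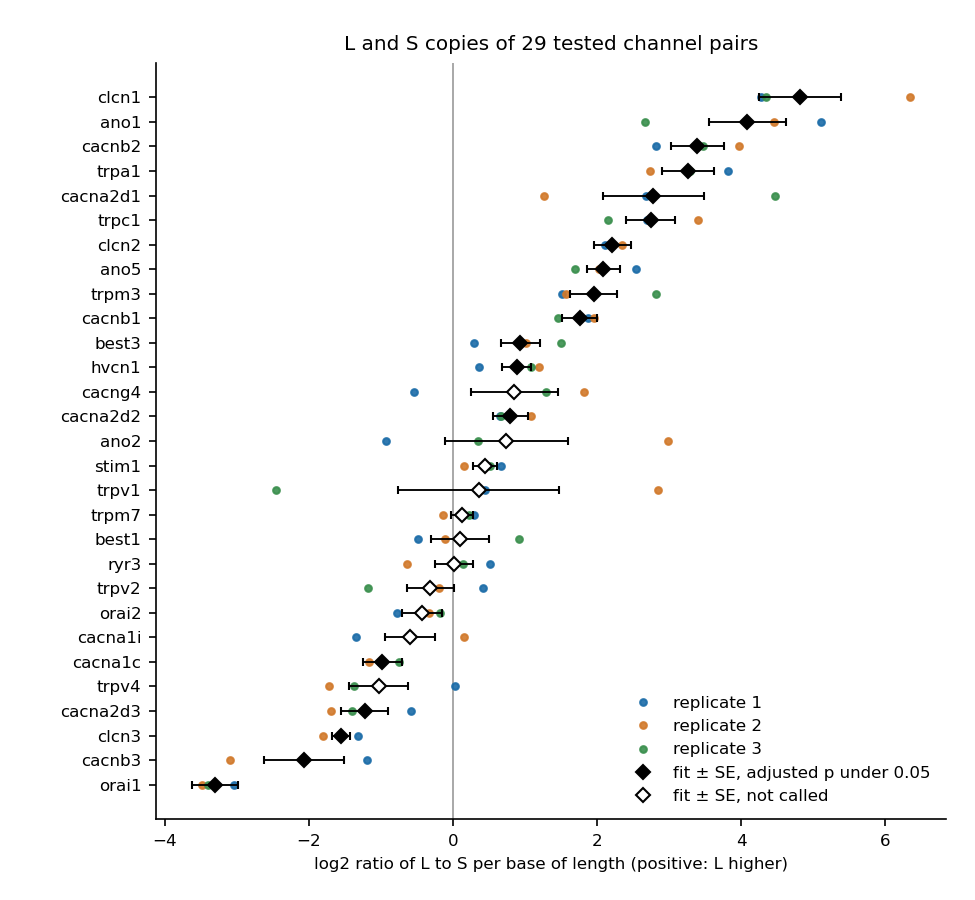
Log2 ratio of L to S for the 29 tested channel pairs: black diamonds give the fitted value with its SE (filled where the adjusted p was under 0.05) and coloured points the ratio of deposited TPM in each library. Filled diamonds run from 4.81 for clcn1 to -3.30 for orai1, and trpv1 has the widest spread between libraries.

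Among chloride channels the copies differed in both directions. For clcn3, given above, S was higher in 3 of 3 libraries, with a fitted ratio of -1.55 on the log2 scale, L over S (SE 0.126, adjusted p = 0.000699, edgeR). For ano1, L was higher with a fitted log2 ratio of 4.09 (SE 0.538, adjusted p = 0.00245, edgeR), although the ratio in replicate 3, 6.37-fold, was well under the 34.4-fold and 21.9-fold of replicates 1 and 2 and the fitted value was 4.78 without replicate 3. For ano5, ano5.S had 1.86, 2.10 and 3.39 TPM, below ano5.L in every library, a log2 ratio of 2.09 (SE 0.230, adjusted p = 0.00143, edgeR). For clcn2, clcn2.S had 0.781, 0.349 and 0.710 TPM, and L held 82.2 ± 1.16% of the summed level (SD, n = 3), the smallest SD among these pairs. L was higher also for best3 (0.94) and for clcn1, whose ratio of 4.81 rests on the 6, 2 and 11 counts of clcn1.S and was 1.38 with limma. The best3 call was lost without replicate 2 or 3 and with separate scaling of L and S (adjusted p from 0.0553 to 0.123, edgeR).

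For hvcn1, L was higher in 3 of 3 libraries, by 1.28-fold in replicate 1 and by 2.29-fold and 2.12-fold in replicates 2 and 3. The fitted log2 ratio was 0.88 (SE 0.205, adjusted p = 0.0153, edgeR). This call was lost without replicate 2 (0.72, adjusted p = 0.0728, edgeR), without replicate 3 (0.78, adjusted p = 0.0593, edgeR) and without the library block (0.98, adjusted p = 0.0524, edgeR).

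For the calcium entry pore orai1 the S copy prevailed, with orai1.L at 0.570, 0.697 and 0.590 TPM against the orai1.S values given above. The log2 ratio was -3.30 (SE 0.321, adjusted p = 0.00102, edgeR), the widest with S higher among these pairs, and L held 9.23 ± 1.43% of the summed level (SD, n = 3). Its paralog orai2 had S above L in 3 of 3 libraries but did not pass (-0.43, adjusted p = 0.236, edgeR). For the sensor stim1, L was above S in 3 of 3 libraries and the ratio of 0.45 did not pass (adjusted p = 0.064, edgeR). It passed with DESeq2 (adjusted p = 0.0431) and without length in the fit (adjusted p = 0.0107, edgeR).

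L was higher for 3 TRP pairs. The irritant receptor row trpa1.S had 0.205, 0.194 and 0.150 TPM, and the log2 ratio was 3.26 (adjusted p = 0.00142, edgeR). For trpc1, trpc1.S had 0.443, 0.449 and 1.01 TPM and the log2 ratio was 2.74 (adjusted p = 0.00211, edgeR). For trpm3, trpm3.S had 1.82, 1.89 and 0.690 TPM and the log2 ratio was 1.95 (adjusted p = 0.00517, edgeR). No TRP pair was called with S higher, and trpm7, trpv1, trpv2 and trpv4 did not pass. For trpv4 the ratio was -1.03 (adjusted p = 0.0783, edgeR). It passed without replicate 1 (-1.55, adjusted p = 0.0142, edgeR), without the library block (-1.17, adjusted p = 0.0437, edgeR) and with DESeq2 (adjusted p = 0.0291).

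Pairs of voltage-gated calcium channels were called in both directions among the beta and among the alpha2delta subunits. Of the beta subunit genes, L was higher for cacnb2 (3.39, SE 0.366) and cacnb1 (1.76, SE 0.240), and S for cacnb3 (-2.07, SE 0.554), with adjusted p of 0.00136, 0.00272 and 0.0245 (edgeR). The cacnb3 call was lost without replicate 2 or 3 (adjusted p = 0.108 and 0.0784, edgeR). Among the alpha2delta pairs, L was higher for cacna2d1 (2.78) and cacna2d2 (0.80), and S for cacna2d3 (-1.22), with adjusted p of 0.0204, 0.0348 and 0.0241 (edgeR). The deposited lengths of cacna2d3.L and cacna2d3.S were 3993 and 1185 bases, and without length in the fit the ratio was 0.53 (adjusted p = 0.206, edgeR), so its direction rests on these lengths. It also lost its call without replicate 2 or 3 (adjusted p = 0.0995 and 0.0962, edgeR). The cacna2d1 call was lost without replicate 1 or 3 and with limma (adjusted p from 0.050 to 0.0569), and its ratio was 3.66 without replicate 2 and 1.91 without replicate 3. The cacna2d2 call was lost without any of the 3 libraries, with L and S scaled separately and without the library block (adjusted p from 0.0629 to 0.113, edgeR). Of the pore genes, S was higher for cacna1c (-0.98, SE 0.268, adjusted p = 0.0265, edgeR). That call was lost without any of the 3 libraries (adjusted p from 0.0824 to 0.0935, edgeR) and with limma (adjusted p = 0.0801). The span of cacna1c.S overlaps that of dcp1b.S, which was higher in every library, and shared reads cannot be told apart. The row whose span overlaps cacna1c.L had at most 0.0419 TPM. The part of shared reads in the cacna1c ratio was not tested. The pore pair cacna1i did not pass (-0.59, adjusted p = 0.189, edgeR). The cacng4 pair did not pass either (0.85, adjusted p = 0.27, edgeR).

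With limma, on a scale whose pseudocount draws ratios of low rows toward 0, 7 more called ratios lay over 1.5-fold nearer 0. They were 2.06 for cacnb2, 1.98 for trpc1, 1.69 for trpa1, 1.53 for clcn2, 1.49 for cacna2d1, -0.86 for cacnb3 and -2.53 for orai1.

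In 9 of the 29 channel pairs (31.0%) the copy with the higher TPM was not the same in every library, against 20.2% of all pairs. L was above S in all libraries in 14 pairs (48.3%, against 44.0% of all pairs), and S above L in 6 (20.7%, against 35.8%). The range of the log2 ratio over libraries had a median of 1.15 for the channel pairs and of 0.653 for the 6587 pairs with counts of both copies in every library. Neither comparison was matched for level. Counting error alone widens the ratio where a copy has few counts, as in clcn1.S with 6, 2 and 11. Its part in the wider range of channel pairs was not tested. The widest range was that of trpv1, the gene of the heat and capsaicin receptor. The row trpv1.L had 6.03, 16.8 and 0.590 TPM in replicates 1, 2 and 3, from 991, 2730 and 86 counts, while trpv1.S had 4.42, 2.34 and 3.23 TPM. L thus held 57.7%, 87.8% and 15.4% of the trpv1 level in replicates 1, 2 and 3. For trpv2, L held 57.2%, 46.7% and 30.6%. For ano2, L held 34.3%, 88.8% and 56.0%, on few counts. With 1 value per copy and library, these shifts could not be tested pair by pair. A ratio of copies within a library is the same whatever that library's scaling. Reads that match both copies may have been dropped or split in the counting, which is not given in the sources used here.

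**Figure D4:**
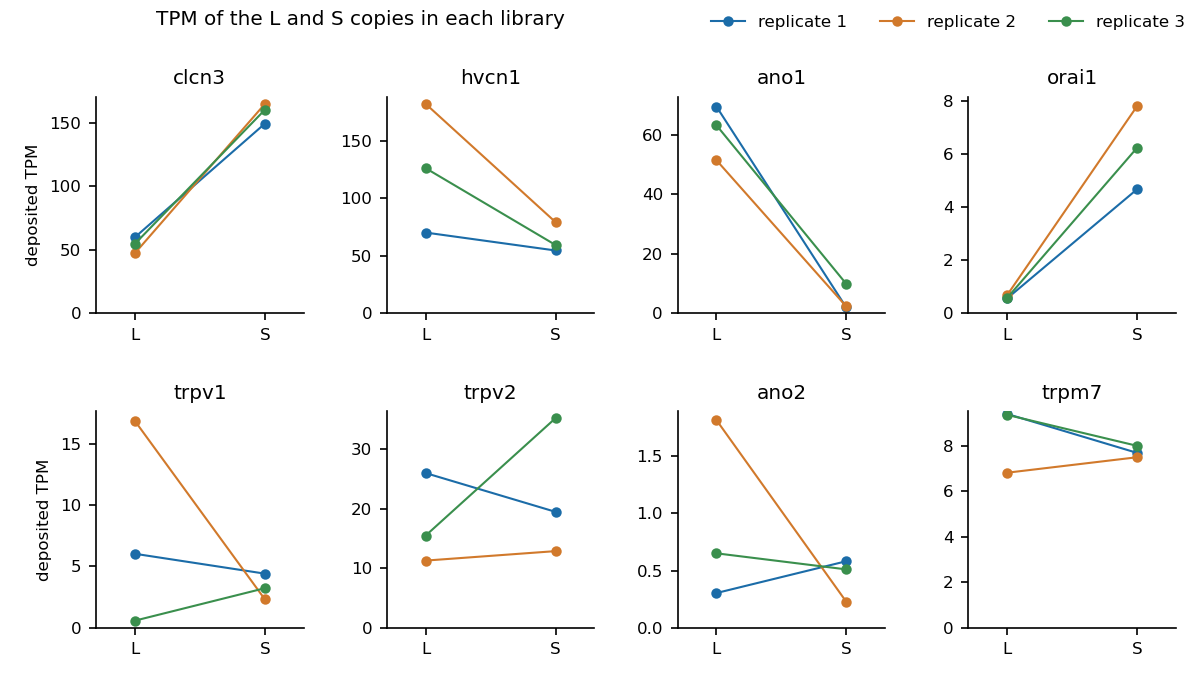
Deposited TPM of the L (left) and S (right) copy in each library for 8 channel pairs, joined within a library. Lines run the same way in all libraries for clcn3, hvcn1, ano1 and orai1, and cross for trpv1, trpv2, ano2 and trpm7.

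Levels of channel rows also varied between libraries. Over the 72 detected channel rows with a mean CPM of at least 2, the median CV was 27.6%, against 20.9% for the 20489 such rows of the table. The highest library was at least 3 times the lowest for 8 of the 72 (11.1%), against 6.78% of all such rows. Channel rows and all rows were not matched for level here. By library, 39 of the 83 detected channel rows (47.0%) were highest in replicate 1, 23 (27.7%) in replicate 2 and 21 (25.3%) in replicate 3, against 50.0%, 28.3% and 21.6% of all detected rows.

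The 5 most variable rows did not share a library. The rows cacna2d1.L (CV 123%) and ano1.S (CV 93.9%) were highest in replicate 3, trpm6.L (CV 107%) in replicate 1, and trpv1.L (CV 106%) and ano2.L (CV 85.6%) in replicate 2. The highest and lowest libraries differed 28.5-fold for trpv1.L, 15.5-fold for cacna2d1.L and 6.19-fold for trpm6.L. With 3 libraries few orders are possible, so a channel row and a marker list can readily share one. The rows cacna2d1.L and ano1.S had the same order of libraries as the summed smooth muscle markers. Of those markers, 10 of 10 rows were detected and none was at 0. The summed level of those markers was 113, 451 and 1245 TPM in replicates 1, 2 and 3, with acta2.S at 20.2, 130 and 283 TPM. Of the 10 rows 7 had that order, while myh11.S (13.7, 5.77 and 19.1 TPM), mylk.L and mylk.S were lowest in replicate 2. Leydig cell markers, with 5 of 5 rows detected and none at 0, had that order too, at 474, 795 and 1453 TPM in all. Leukocyte markers, with 6 of 7 rows detected, summed to 79.9, 58.4 and 231 TPM, in the same order as trpv2.S, mostly through mpo.S at 2.14, 1.49 and 131 TPM. Sums of Sertoli cell (686.5, 526.9 and 782.0 TPM) and cardiac muscle markers (47.9, 36.8 and 92.6 TPM) shared that order. It held in 1 of 8 and 3 of 7 of their single rows. The other copy, trpv2.L, was highest in replicate 1. Of the 7 leukocyte rows 4 had that order, mpo.L and ptprc.L were lowest in replicate 1, and spi1.L, at 15.3, 18.2 and 6.71 TPM, was lowest in replicate 3. Neuron markers, with 3 of 5 rows detected, summed to 44.4, 20.95 and 19.6 TPM and were highest in replicate 1, like trpm6.L. The sums of spermatogonia (2278, 2060 and 1927 TPM), endothelial (32.5, 23.1 and 24.3 TPM) and erythrocyte markers (74.3, 66.6 and 37.1 TPM) were highest there too. So were 50.0% of all detected rows, and the match with trpm6.L is therefore not particular to neurons. Sums of spermatid (1466, 1922 and 1683 TPM) and meiosis markers (756, 938 and 809 TPM) were highest in replicate 2, like trpv1.L and ano2.L. Those of skeletal muscle (205, 237 and 186 TPM) and adipocyte markers (103, 111 and 79.4 TPM) were too. In none of these lists were all single rows highest there. Of all detected rows, 28.3% were highest in replicate 2. The part of these cells in the channel levels was not tested. The 5 rows of lowest CV, best1.L, trpm7.S, ano10.L, tpcn2.L and clcn3.S, had CVs from 2.90% to 5.04%. The value of best1.L rests on 140, 140 and 120 counts, at the mean CPM limit of 2. Counting error is larger at such counts, so its low CV does not show a steadier row.

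**Figure D5:**
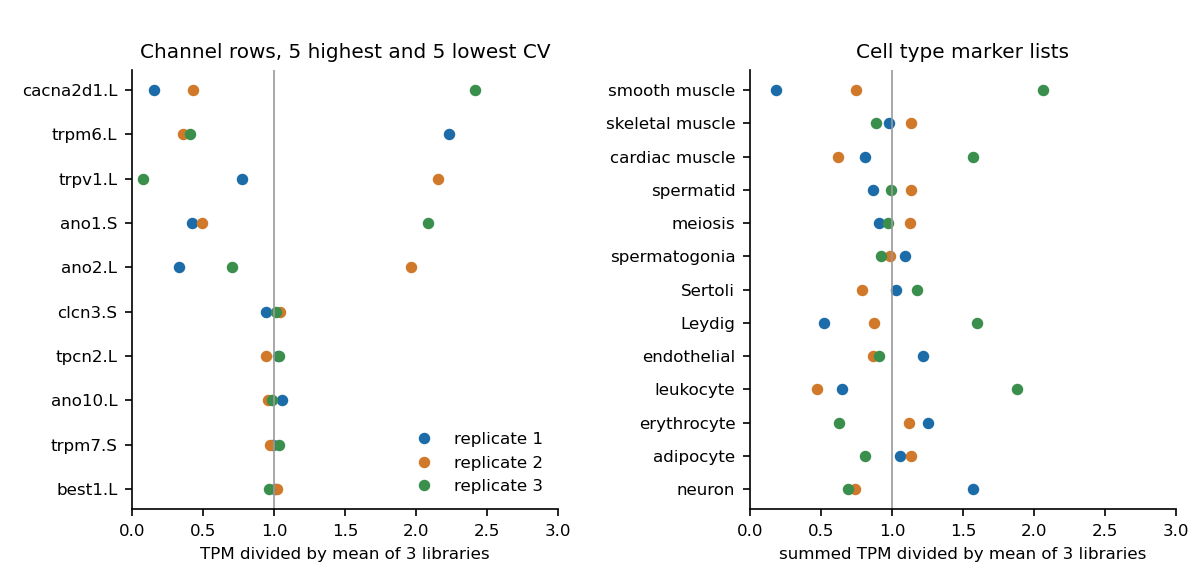
Value in each library divided by the mean of the 3 libraries, for the 5 most and 5 least variable channel rows (left, TPM, mean CPM of at least 2) and for cell type marker lists (right, summed TPM). The upper 5 channel rows peak in different libraries, the lower 5 stay close to 1, and smooth muscle markers are lowest in replicate 1 and highest in replicate 3.

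Genes that work beside these channels were counted from lists of related genes. Of all rows 66.7% were detected, and of rows with a gene name 81.6%. Genes without a row under their symbol were not counted. In the order below, 13 of 16, 8 of 8, 13 of 15, 12 of 23 and 19 of 24 listed genes had a row. None of the catsper genes, listed with other calcium-permeable channels, had one. Of 23 rows for calcium release, pumps and exchangers, 19 were detected at a list median of 3.07 TPM, led by the reticulum pump atp2a2.S at 43.2 ± 3.46 TPM, the mitochondrial sodium-calcium exchanger slc8b1.S at 18.6 ± 2.67 and the plasma membrane pump atp2b1.L at 17.7 ± 1.84 (SD, n = 3). All 14 rows around mitochondrial calcium uptake were detected, with a median of 13.8 TPM. Of these, the uniporter regulator smdt1.S had 293 ± 82.2 TPM and the inner membrane gene letm1.L 195 ± 32.9 TPM, while the pore rows mcu.L and mcu.S had 5.09 ± 1.40 and 3.18 ± 0.245 TPM (SD, n = 3). Of 21 rows for partners of the channels, 15 were detected, led by fkbp1a.L and fkbp1a.S, whose product binds ryanodine receptors among other proteins, at 156 ± 5.01 and 138 ± 25.1 TPM (SD, n = 3). Lower in that list, and not next in level, the store-entry regulator saraf.S had 31.1 ± 5.62 TPM. Of 17 rows for other calcium-permeable channels, 14 were detected, with the osmosensitive channel gene tmem63b.S at 37.6 ± 6.91 TPM, the lysosomal mcoln1.L at 11.6 ± 3.95 and the ATP-gated p2rx1.L at 11.4 ± 2.83 (SD, n = 3). Of 31 rows for other chloride and proton channels, 25 were detected, with the acid-activated chloride channel gene pacc1.L at 17.5 ± 1.38 TPM and clic1.L at 11.7 ± 4.02 TPM (SD, n = 3). Pairs of these 5 lists were called with L higher in 4 of 8, 3 of 6, 4 of 7, 1 of 5 and 3 of 10, and with S higher in 3, 1, 1, 1 and 0, in the order given, against 34.4% and 26.7% of all pairs.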

How the data were processed

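The poly-A libraries of whole testis were built with a TruSeq mRNA kit, per the labels' protocols. Reads were aligned with HISAT2 and counted with featureCounts, going by the submitters' processing notes. No source used here gives their versions, the strand setting, the feature type or the treatment of multi-mapping reads. Whole-number counts, gene lengths, TPM, a signal per kilobase and log2 values were deposited, per the file headers, and the last 2 were not used. Columns were matched to libraries by the processing date in their heading. Of all gene lengths, 90.9% are multiples of 3, so they were read as coding lengths, which was not checked.

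CPM and the L to S test were computed from the deposited counts with edgeR 4.0.16 (TMM factors, quasi-likelihood, offset of library size times length, library as a block); SEs are the absolute log2 ratio over the square root of F. limma 3.58.1 (pseudocount 0.5) and DESeq2 1.42.0 were alternatives, as were other limits on low counts, scalings and leaving out each library. TPM levels are the authors' deposited values, as mean ± SD over 3 libraries. Gene spans that overlap were looked up in the NCBI gene table of Xenopus_laevis_v10.1, where all 112 channel rows matched by symbol; the files' build is not spelled out, so no coordinates are given.

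Members are set by symbol alone, but the families in the rule, the lists and the tests were chosen with earlier results of these data known. Named are the hvcn1 rows, up to 4 rows of highest mean TPM in each other class, all called pairs, the 5 most and least variable rows at a mean CPM of at least 2, the 2 rows on each side of the detection limit, and up to 3 rows per related list. Other rows were named after their values were seen. Of the rows the rule names, 1 is not reported here.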

Additional observations from a re-analysis of the deposited data

How the results depend on the processing

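Of 112 channel rows, 83 were detected, against 98 and 73 with CPM limits of 0.1 and 1, 82 with CPM on library totals, 74 with a limit of 0.5 TPM, and 85 to 86 without a library. Their summed level of 857 TPM was 666 without the 2 hvcn1 rows and ranged from 814 to 883 under the other alternatives, leave-one-out fits included (836 to 883). Pairs with L higher numbered 13 and ranged from 9 to 14 over the alternatives, from 9 to 11 where a library was left out. Pairs with S higher numbered 5, and 4 to 6 with all libraries. They fell to 2 without replicate 2 and to 2 without replicate 3, while 5 were called without replicate 1. No paired analysis between groups was possible because there is 1 group; without the replicate block that joins L and S of a library, 11 pairs had L and 6 had S higher.

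Of the 18 called pairs, 11 kept their call and direction under every alternative run, and 1 reversed, cacna2d3 at 0.53 without length. The other reversals were in pairs that were not called. With L and S columns scaled separately, best1 was at -0.063, ryr3 at -0.15 and trpm7 at -0.034. Where a library was left out, ano2 ranged from -0.29 (without replicate 2) to 1.655, best1 from -0.30 (without replicate 3) to 0.40, ryr3 from -0.24 (without replicate 1; -0.058 without replicate 3) to 0.33, trpv1 from -0.96 (without replicate 2) to 1.65 and trpv2 from -0.69 to 0.11 (without replicate 3). The cause was not tested. Fits without a library rest on 2 libraries, and rows with few counts, such as most cacng rows, are limited by depth.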
